A study of Mus musculus with 12 samples.

Results

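Glycolysis, pyruvate and lactate genes were followed in the pluripotent mouse embryonic stem cell line J1. The list holds 36 genes, of 16015 tested in the retinoic acid comparison and 14531 in the vitamin C comparison. A gene entered if the transcript accession of an array feature mapped to its symbol or to an older alias. All 36 were matched and tested in retinoic acid. In vitamin C 35 were, since no feature of that array design matched Pdk2. Total RNA was measured on Agilent one-colour arrays in 4 groups of 3 samples. The VC samples received vitamin C (given in the labels as 50 μg, with no volume) and the ddH2O samples received water. The RA samples received 1 μM retinoic acid and the DMSO samples its solvent. All groups were kept for 24 hours, on gelatin without a feeder layer named in the labels, with serum replacement and 1000 U/mL of leukaemia inhibitory factor. VC and ddH2O arrays were of one design, RA and DMSO arrays of another, and no level was set across them.

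Glycolysis turns glucose into pyruvate in the cytosol and yields ATP without oxygen. Hexokinase and phosphofructokinase are its main control points, and bifunctional PFKFB enzymes make and break fructose 2,6-bisphosphate, the strongest activator of phosphofructokinase. Pyruvate is either reduced to lactate, which leaves the cell through monocarboxylate transporters, or enters mitochondria, where pyruvate dehydrogenase turns it into acetyl-CoA and pyruvate dehydrogenase kinases shut that enzyme off. Many steps are served by several isozymes that differ between tissues, and pluripotent cells are known for high glycolytic activity.

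Hypoxia-inducible factors bind the core ACGTG or, in other genes, GCGTG, whereas Myc and ChREBP-type factors bind CACGTG, which contains ACGTG. These letters were searched on both strands in the 250 bases before the first listed start of each gene in the RefSeq promoter table (GRCm38.p6). ACGTG or GCGTG stood in 26 of the 36 members (72.2%), and in 38.6% of 27025 genes of the table. CACGTG stood in 6 members (16.7%), and in 6.05% of the genes. The promoter table also holds genes not tested on the arrays, and no share over tested genes alone was computed. The share with ACGTG or GCGTG was 71.4% among the 7 members that rose in RA, 72% among the 25 that fell and 75% among the 4 that did neither. The 150 bases before the start are shown for the 3 members with the lowest fitted differences in RA (Pfkp, Pdk1 and the dim Fbp1, whose size depends on the background correction), for the 3 with the largest rises (Pdk3, Slc16a1, Eno3) and for Ldha, which holds CACGTG at 2 places. They run 5′ to 3′ on the gene's strand, and capitals mark these motifs on either strand.
Pfkp, chr13:6648772-6648921, minus strand: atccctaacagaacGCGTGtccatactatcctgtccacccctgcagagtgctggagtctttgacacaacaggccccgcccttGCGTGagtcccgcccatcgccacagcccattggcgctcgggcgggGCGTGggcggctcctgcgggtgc
Pdk1, chr2:71873074-71873223, plus strand: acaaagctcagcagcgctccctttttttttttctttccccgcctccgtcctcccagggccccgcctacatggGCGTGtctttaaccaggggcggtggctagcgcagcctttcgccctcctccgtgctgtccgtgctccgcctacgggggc
Fbp1, chr13:62888283-62888432, minus strand: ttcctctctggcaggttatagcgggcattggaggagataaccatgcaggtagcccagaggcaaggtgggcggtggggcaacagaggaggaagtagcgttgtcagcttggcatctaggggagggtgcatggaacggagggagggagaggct
Pdk3, chrX:93832151-93832300, minus strand: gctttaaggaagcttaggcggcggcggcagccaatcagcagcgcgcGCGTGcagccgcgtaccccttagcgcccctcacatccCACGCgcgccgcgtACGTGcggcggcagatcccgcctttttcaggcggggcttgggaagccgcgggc
Slc16a1, chr3:104638514-104638663, plus strand: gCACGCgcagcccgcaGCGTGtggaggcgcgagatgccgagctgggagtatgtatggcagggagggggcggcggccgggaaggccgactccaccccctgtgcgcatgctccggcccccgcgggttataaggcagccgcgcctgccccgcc
Eno3, chr11:70657026-70657175, plus strand: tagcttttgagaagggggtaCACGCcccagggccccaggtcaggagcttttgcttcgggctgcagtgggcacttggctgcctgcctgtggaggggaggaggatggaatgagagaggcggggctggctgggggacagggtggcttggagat
Ldha, chr7:46845654-46845803, plus strand: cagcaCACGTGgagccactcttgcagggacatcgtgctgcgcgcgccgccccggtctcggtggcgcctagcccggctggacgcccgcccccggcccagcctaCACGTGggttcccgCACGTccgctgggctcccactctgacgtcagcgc

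Pfkp showed 3 GCGTG cores in this stretch, Pdk1 showed 1, and Fbp1 showed none of the letters. The stretch before Pdk3, which rose, held 2 GCGTG cores and 1 ACGTG core. Ldha, which fell, showed CACGTG at 2 places and CACGT at another. A match describes letters and does not show a bound site.

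The labels were checked first. All 5 retinoic acid response genes rose in RA, with Cyp26a1, the retinoic acid hydroxylase, 323-fold higher. Of 9 embryonic stem cell markers 8 fell in RA and Nanog rose, and their summed linear signal, in units of each array's 75th percentile, was 83.6 to 94.2 in RA and 554 to 572 in DMSO. In VC 4 of 8 rose, with overlapping sums of 591 to 641 in VC and 554 to 634 in ddH2O. Over all genes 35.9% rose and 42.1% fell in RA, and 6.59% rose and 10.5% fell in VC. The RA arrays were dimmer, with a 75th percentile signal of 288 to 388 against 608 to 612 on the DMSO arrays, and no spot was saturated. The 3 RA arrays lay on 1 slide and the 3 DMSO arrays on another, so slide and treatment cannot be told apart. In such bulk samples fewer cells of a type and less RNA per cell cannot be told apart either. Nothing in the labels tells separate cultures from repeats of 1 culture, so p-values measure a spread between samples that may be technical.

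After retinoic acid most of the pathway fell. Of 36 members, 25 fell and 7 rose past a limma adjusted p of 0.05, and 4 did neither. Over all 16015 genes 42.1% fell and 35.9% rose. The members' median log2 difference was -0.88, against -0.07 over all genes. At least 2-fold changes numbered 14 falls and 4 rises, and the share of all genes that changed 2-fold was not computed. The 7 rises were a PFKFB enzyme, a mutase, the enolases Eno2 and Eno3, the kinases Pdk2 and Pdk3 and a lactate transporter. The 5 members of hexose phosphate formation and all 3 phosphofructokinase subunits fell.

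**Figure D1:**
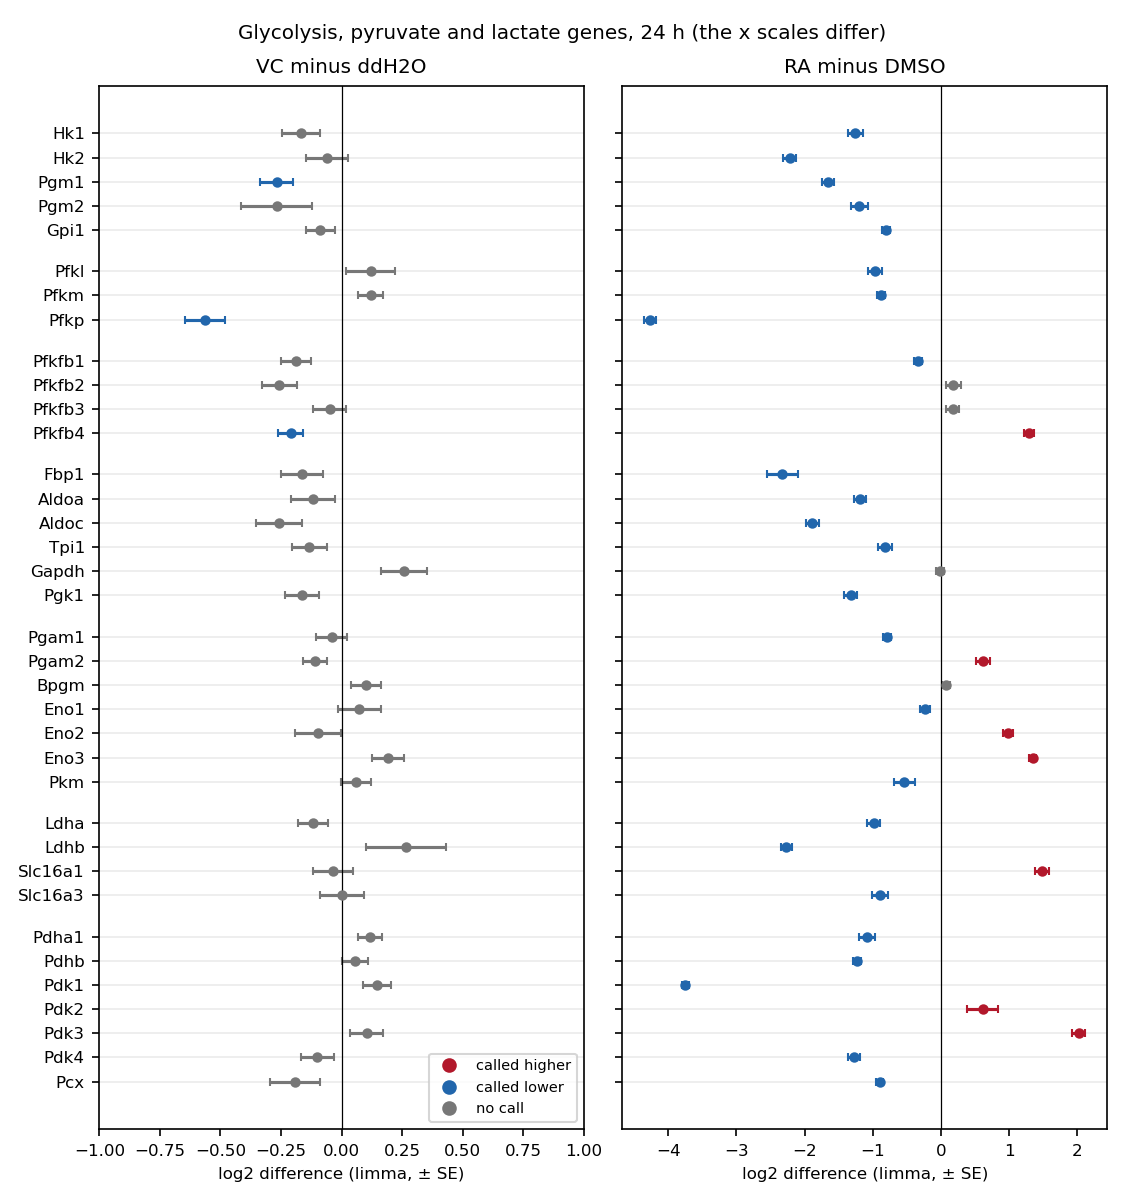
Log2 difference of each member in VC minus ddH2O (left) and RA minus DMSO (right), from limma with its SE (n = 3 samples a group), ordered by step. In RA most points lie below 0, from -4.26 for Pfkp to 2.02 for Pdk3, whereas the VC points lie between -0.56 and 0.27 on a narrower axis.

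The counts of called members stayed close under other scalings, while the sizes of the changes moved. With scaling to each array's median, 27 members fell and 6 rose, and with scaling to spike-in controls, chosen after seeing the data, 25 fell and 5 rose. The median over all genes moved by -0.34 and -0.39 under these scalings, and the members' median was then -1.23 and -1.27, against -0.42 and -0.46 over all genes. Quantile normalization gave a members' median of -0.59 against -0.03 over all genes. Over all genes 5742 rose and 6745 fell, against 3974 and 8795 with the median and 3133 and 7787 with the spike-ins. Of the 32 called members, 28 were called in the same direction under all of the 16 or 17 alternatives run for each, and Pgam2, Eno1, Pkm and Pdk2 were not.

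All 5 members that make or interconvert the hexose phosphates fell in RA. Other isozymes of these steps, outside the member list, went both ways. Hk2, the inducible hexokinase that traps glucose in the cell, had log2 levels relative to the array's 75th percentile of 1.05, 0.90 and 1.19 in RA, against 3.26, 3.37 and 3.17 in DMSO. All RA samples lay below all DMSO samples, a 4.66-fold fall (log2 difference -2.22, SE 0.10, limma adjusted p = 4.11e-06). Hk1, the hexokinase of most tissues, was 2.39-fold lower on its brightest feature, on which RA replicate 1 was left out because its spot was an outlier, and its other feature lay at -0.90. With the mean of its features the Hk1 difference was -1.85. That size is distorted, since in RA replicate 1 this mean was the dimmer feature alone (-2.33). Pgm1, a phosphoglucomutase that links glucose 1-phosphate to glycolysis, measured 2.84, 2.65 and 2.91 in RA and 4.41, 4.42 and 4.55 in DMSO. The groups did not overlap and Pgm1 was 3.16-fold lower (difference in log2 -1.66, SE 0.09, limma adjusted p = 1e-05). Pgm2 was 2.29-fold lower. The RefSeq table lists each of the symbols Pgm1 and Pgm2 as an older name of the other gene, and the current names are used here. Gpi1, glucose-6-phosphate isomerase, was 1.75-fold lower, with its 3 features between -0.94 and -0.80.

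Phosphofructokinase, the committed step, fell in all its subunits and furthest in the platelet-type subunit. Pfkp had log2 levels of -1.75, -2.03 and -1.87 in RA, against 2.36, 2.42 and 2.36 in DMSO. The groups lay far apart, a 19.2-fold fall (log2 difference -4.26, SE 0.09, limma adjusted p = 2.14e-07). The other feature of Pfkp fell by 0.55 on the log2 scale. That feature is the dimmer one in DMSO, so the size of the Pfkp fall depends on the feature read: the difference was -2.40 with the mean of both, and -3.67 with normexp background correction of the brightest. The liver-type subunit gene Pfkl was 1.95-fold lower and the muscle-type subunit gene Pfkm 1.83-fold lower. Within an array the Pfkp to Pfkl ratio was lower in every RA sample than in any DMSO sample, by 3.30 on the log2 scale on the brightest features. With the mean of each gene's features the ratio difference was -1.44.

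The PFKFB enzymes split. Pfkfb4, an isozyme strongly expressed in testis and many tumours, had log2 levels of -0.17, -0.08 and -0.28 in RA, against -1.38, -1.52 and -1.50 in DMSO. All RA samples were above all DMSO samples, a 2.45-fold rise (log2 difference 1.29, SE 0.08, limma adjusted p = 1.57e-05). Pfkfb1, the liver and muscle isozyme, fell by 0.34 on the log2 scale. Pfkfb2, the heart isozyme, lay at 0.19 and Pfkfb3, the isozyme with the highest kinase activity, at 0.17, and neither passed the test. The Pfkfb4 to Pfkfb3 ratio was higher in RA, by 1.12.

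From aldolase to phosphoglycerate kinase 4 of 5 members fell. Aldoc, the brain-type aldolase that cleaves fructose 1,6-bisphosphate, had log2 levels of 2.59, 2.36 and 2.62 in RA, against 4.33, 4.45 and 4.44 in DMSO. The groups did not overlap and the fall was 3.69-fold (log2 difference -1.88, SE 0.09, limma adjusted p = 5.57e-06). Aldoa, the muscle-type aldolase that is also the common one in embryonic tissue, was 2.27-fold lower, so that the Aldoc to Aldoa ratio fell by 0.70. Tpi1, triosephosphate isomerase, was 1.76-fold lower, and both its features fell. Pgk1, phosphoglycerate kinase, which makes the first ATP of the pathway, had log2 levels of 6.08, 5.88 and 5.86 in RA and 7.18, 7.20 and 7.40 in DMSO. All RA samples were lower, a 2.50-fold fall (log2 difference -1.32, SE 0.10, limma adjusted p = 3.5e-05).

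Gapdh, the dehydrogenase often used as a loading control, did not pass the test on its brightest feature. There it measured 9.17, 9.10 and 9.14 in RA, against 9.13, 9.18 and 9.12 in DMSO, and the groups overlapped (log2 difference -0.01, SE 0.06, limma adjusted p = 0.916). The 6 other features of Gapdh all fell, from -1.32 to -0.53, and the mean of all 7 features gave -0.82. With median scaling the brightest feature lay at -0.35 (limma adjusted p = 0.0021). Among the 9 members with more than 1 tested feature the brightest feature had the smallest change in 6, and in 7 all features were called in the same direction. Over all features tested 35.5% fell and 36% rose, and of 52 member features 40 fell and 6 rose. Pdk2 had 1 feature, which passed in the gene table but not in the feature table (limma adjusted p = 0.0526).

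**Figure D2:**
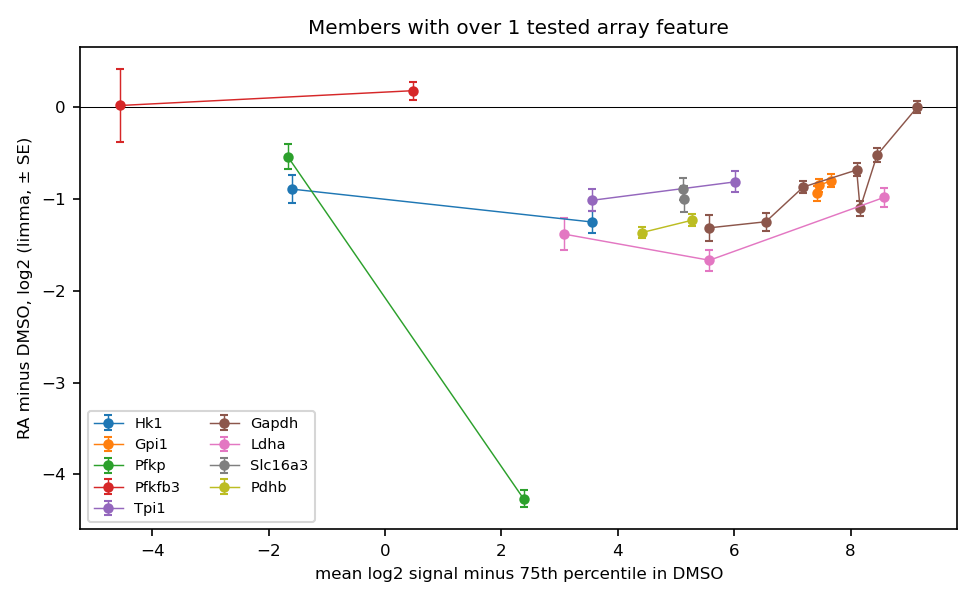
Each point is an array feature of a member with more than 1 tested feature, with its mean log2 level in DMSO (x) and its log2 difference RA minus DMSO with SE (y, limma, n = 3 samples a group). Lines join the features of a gene. The 7 Gapdh features run from -1.32 to -0.01, and the 2 Pfkp features lie at -4.26 and -0.55.

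From phosphoglycerate mutase to pyruvate kinase 3 of 7 members rose and 3 fell. Eno3, the muscle enolase, had log2 levels of 4.83, 4.88 and 4.83 in RA, against 3.50, 3.54 and 3.46 in DMSO. All RA samples were higher, a 2.54-fold rise (log2 difference 1.35, SE 0.06, limma adjusted p = 3.44e-06). Eno2, the neuronal enolase, measured -0.60, -0.79 and -0.65 in RA and -1.63, -1.72 and -1.65 in DMSO. It was 1.98-fold higher without overlap (limma adjusted p = 3.88e-05). Eno1, the common enolase, fell by 0.23 (limma adjusted p = 0.0255), but lay at 0.13 with quantile normalization and 0.12 in the authors' series values, so its direction is not settled. The 2 features of Eno1b, a near-identical copy of Eno1, lay at -0.20 and -0.76, and cross-hybridisation was not tested.

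Pgam2, the muscle phosphoglycerate mutase, measured 0.70, 0.58 and 0.93 in RA, against 0.17, 0.13 and 0.05 in DMSO. It was 1.54-fold higher with no overlap (limma adjusted p = 0.0014). With spike-in scaling the difference of Pgam2 was 0.23, short of the threshold. Pgam1, the common mutase, was 1.73-fold lower, so the Pgam2 to Pgam1 ratio rose by 1.41. Bpgm, which makes the haemoglobin regulator 2,3-bisphosphoglycerate, lay at 0.07, and at -0.27 with median scaling. Pkm, pyruvate kinase, was 1.45-fold lower (limma adjusted p = 0.0186), and lay at -0.21 without passing under quantile normalization. Its RA-design feature carries another transcript accession than its VC-design feature, and the M1 and M2 splice forms were not resolved.

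**Figure D3:**
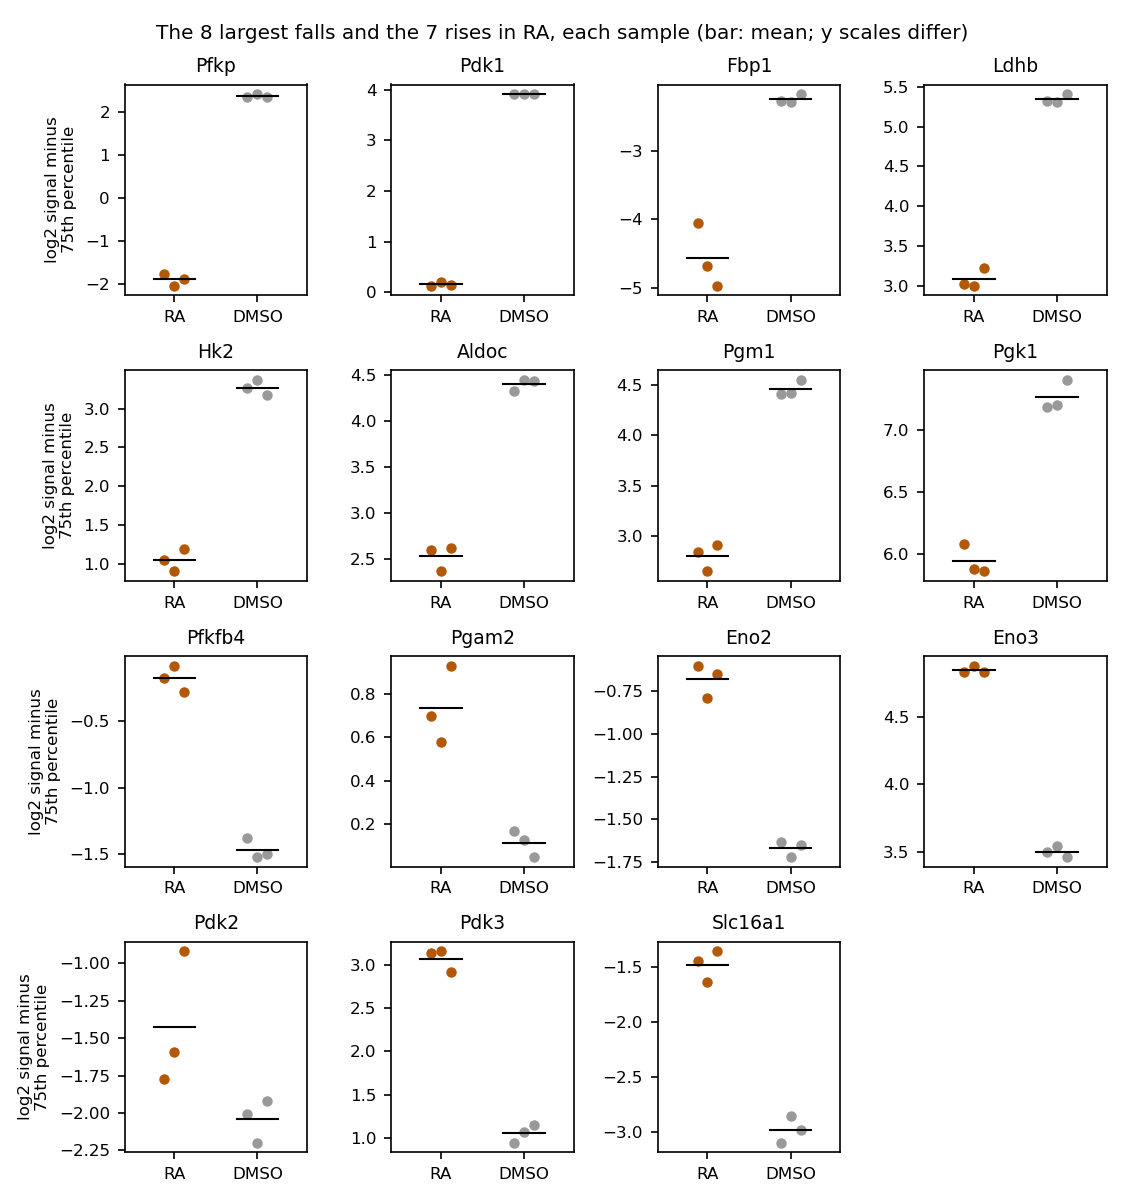
Log2 level of each sample relative to its array's 75th percentile for the 8 members with the largest falls in RA and the 7 that rose, with RA left of DMSO and bars at the means (n = 3 samples a group). In none of the 15 panels do the groups overlap, and the widest gap is that of Pfkp, with RA samples from -2.03 to -1.75 and DMSO samples from 2.36 to 2.42.

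At the lactate step Ldhb, the heart-type lactate dehydrogenase subunit gene, had log2 levels of 3.02, 3.0 and 3.22 in RA, against 5.32, 5.31 and 5.41 in DMSO. All RA samples were lower, a 4.81-fold fall (log2 difference -2.27, SE 0.08, limma adjusted p = 1.72e-06). Ldha, the muscle-type subunit gene that favours lactate formation, measured 7.76, 7.45 and 7.57 in RA and 8.48, 8.64 and 8.61 in DMSO. It was 1.98-fold lower (limma adjusted p = 0.000146), and its 2 dimmer features fell by 1.67 and 1.39 on the log2 scale. The Ldhb to Ldha ratio fell by 1.28, and by 0.92 with the mean of features.

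The lactate transporters went opposite ways on the features read. Slc16a1, which encodes the monocarboxylate transporter MCT1, measured -1.45, -1.64 and -1.36 in RA, against -3.1, -2.86 and -2.98 in DMSO. All RA samples were higher, a 2.81-fold rise (log2 difference 1.49, SE 0.10, limma adjusted p = 2.74e-05). This rests on 1 dim feature. On the other design, whose levels are not on a common scale with these, Slc16a1 features lay at 3.61, 3.17 and -1.90 in ddH2O. Whether the RA-design feature reads the main transcript of Slc16a1 was not tested. Slc16a3, which encodes the lactate exporter MCT4, was 1.86-fold lower, and both its features fell. The Slc16a3 to Slc16a1 ratio was lower in RA, by 2.39, and rests on the same dim Slc16a1 feature.

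At the entry of pyruvate into mitochondria both subunits of pyruvate dehydrogenase measured here fell. Pdha1, which encodes the catalytic alpha subunit, was 2.12-fold lower and Pdhb, which encodes the beta subunit, 2.35-fold lower. Of the kinases that inhibit the enzyme, 2 fell and 2 rose. Pdk1, a kinase induced by hypoxia-inducible factors, had log2 levels of 0.13, 0.20 and 0.15 in RA, against 3.91 in each DMSO sample. The groups lay far apart, a 13.4-fold fall (log2 difference -3.75, SE 0.05, limma adjusted p = 9.52e-08). Pdk3 measured 3.14, 3.16 and 2.92 in RA and 0.94, 1.07 and 1.15 in DMSO. It was 4.06-fold higher with no overlap (log2 difference 2.02, SE 0.09, limma adjusted p = 5.1e-06). Pdk4, the kinase induced by fasting, was 2.42-fold lower, with a log2 difference of -1.27, and of -0.69 with normexp.

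Pdk2, the most widely expressed kinase, measured -1.77, -1.59 and -0.92 in RA, against -2.01, -2.20 and -1.92 in DMSO. The RA samples were all higher but spread widely, and the 1.53-fold rise was close to the threshold (limma adjusted p = 0.0437). Under quantile, median and spike-in scaling and in the authors' values Pdk2 lay between 0.22 and 0.41 and did not pass. The Pdk3 to Pdk1 ratio rose by 5.77, the largest change among the 15 ratios that could be computed in RA.

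Both members that act in the reverse direction, Fbp1 and Pcx, fell, while the glucose-6-phosphatase genes G6pc and G6pc3, from a companion list, rose. Fbp1, fructose-1,6-bisphosphatase, measured -4.06, -4.68 and -4.97 in RA, against -2.27, -2.29 and -2.17 in DMSO. All RA samples were lower and 1 of them was not well above background, a 5.01-fold fall (log2 difference -2.33, SE 0.22, limma adjusted p = 0.000127). With normexp background correction its difference was -0.54 (limma adjusted p = 6.41e-05), so the direction held and the size of this fall is not settled. Pcx, pyruvate carboxylase, which feeds pyruvate to oxaloacetate, was 1.86-fold lower.

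Ratios of isozymes within an array do not change when the whole array is rescaled, but can change with the feature read. With the authors' values or the mean of features, 9 ratio changes in RA counted as moved and 21 as the same. In RA 15 of 16 ratios could be computed, and the Hk2 to Hk1 ratio could not because of the outlier spot of Hk1. In 12 of the 15 the RA and DMSO samples did not overlap, 6 higher and 6 lower. Each of these had an exact two-sided permutation p = 0.1, the smallest that 3 against 3 samples can give (adjusted p = 0.125 over the 15 ratios), so the design cannot bring them under 0.05. Of the 36 members themselves 33 did not overlap in RA, and the share of all genes without overlap was not computed. By limma adjusted p under 0.05, 42.1% of all genes fell and 35.9% rose. No share over other gene pairs was computed, and some genes enter more than 1 ratio.

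**Figure D4:**
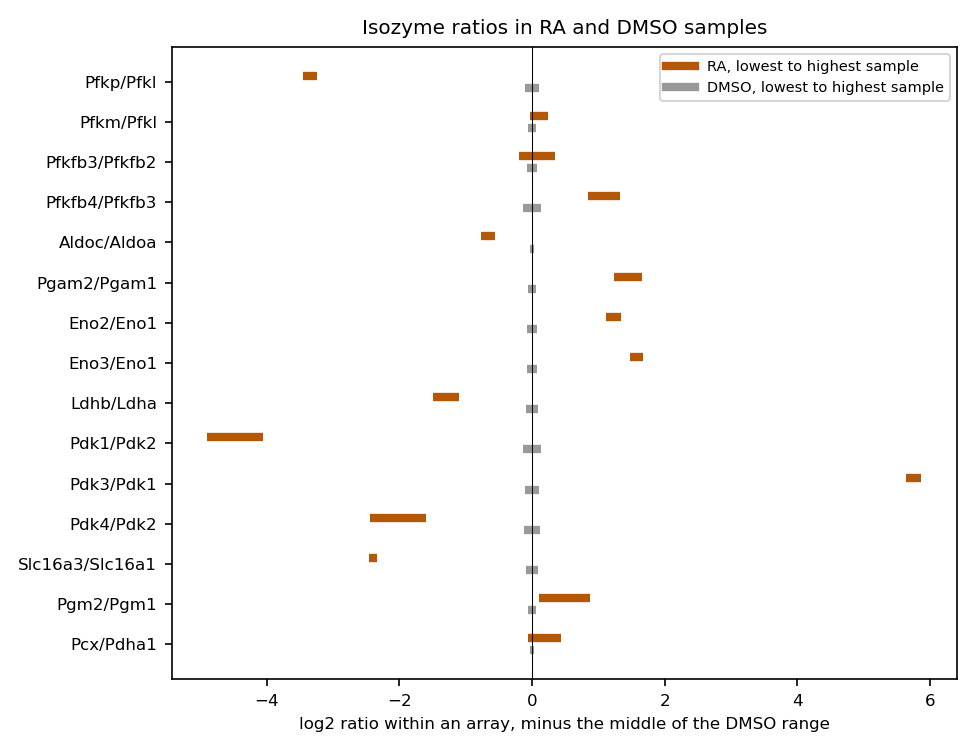
Range over the 3 samples of each within-array log2 ratio in RA and in DMSO, minus the middle of the DMSO range. The Pdk3 to Pdk1 ratio lies furthest to the right and the Pdk1 to Pdk2 ratio (difference -4.36) furthest to the left, while Pfkm to Pfkl, Pfkfb3 to Pfkfb2 and Pcx to Pdha1 overlap.

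Markers of other cell types moved in both directions in RA, where 35.9% of all genes rose and 42.1% fell. Of 5 tested muscle markers 4 rose in RA and 1 fell, with a summed signal of 6.24 to 6.73 in RA and 3.21 to 3.53 in DMSO. The defining muscle genes Ckm and Myog were dim, below the well-above-background mark, on all 6 arrays. Of 8 tested fibroblast markers 6 rose and 2 fell, with sums of 108 to 117 in RA and 88.2 to 93.1 in DMSO, and Lum and Postn were not above background. Of 6 neuronal markers 3 rose and 2 fell, with overlapping sums of 7.52 to 8.53 in RA and 7.42 to 7.68 in DMSO. Of 6 tested markers of blood and endothelium 2 rose (Tie1 and Ptprc) and 2 fell (Pecam1 and Gata1), with sums of 10.03 to 15.6 in RA and 9.69 to 10.6 in DMSO that overlapped, and Cdh5 was dim on all arrays. Their part in the rise of Eno3, Pgam2 and Eno2 was not tested.

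In vitamin C few members passed the test. Of 35 tested members 3 fell and none rose by limma, and 32 did not pass. At an unadjusted p under 0.05 there were 6 lower and 3 higher, and 5035 of all 14531 genes in either direction. By adjusted p 10.5% of all genes fell and 6.59% rose, so the members' share of falls was near that of all genes. Over all genes 958 rose and 1533 fell, against 1511 and 1156 with median scaling and 1268 and 994 with spike-in scaling. The members' median log2 difference was -0.09, and -0.02 without VC replicate 1. No member changed 2-fold in either direction, and the share of all genes that did was not computed.

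Pfkp was again the member with the largest fall. It measured 2.35, 2.53 and 2.43 in VC, against 3.03, 3.1 and 2.87 in ddH2O. All VC samples were lower, a 1.48-fold fall (log2 difference -0.56, SE 0.08, limma adjusted p = 0.0113). Its other feature lay at -0.29 (limma adjusted p = 0.0609). Pgm1 measured 4.48, 4.68 and 4.62 in VC and 4.85, 4.90 and 4.83 in ddH2O. The groups did not overlap and the fall was 1.20-fold (limma adjusted p = 0.0444). Pfkfb4 measured -1.18, -1.26 and -1.21 in VC, against -1.03, -1.0 and -0.99 in ddH2O. It was 1.16-fold lower with no overlap (limma adjusted p = 0.0389), whereas it rose in RA.

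**Figure D5:**
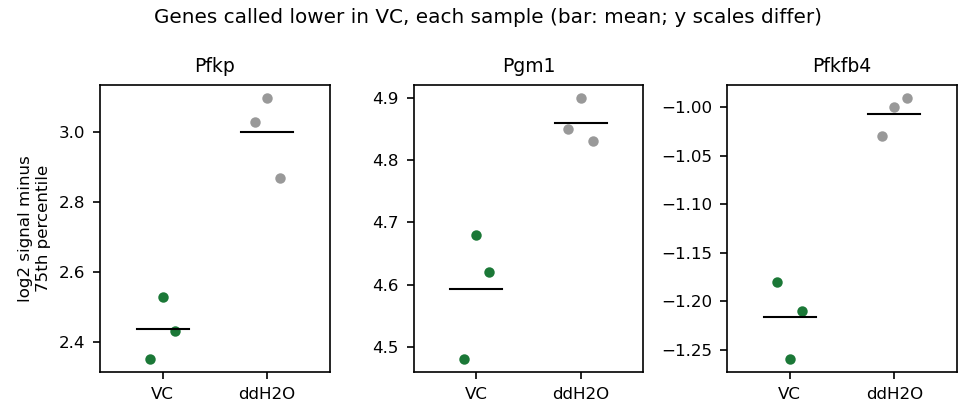
Log2 level of each sample relative to its array's 75th percentile for the 3 members that fell in VC, with VC left of ddH2O and bars at the means (n = 3 samples a group). The VC samples lie below all ddH2O samples in each panel, with a gap of less than 1 on the log2 scale.

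Of these 3 calls Pfkp held in 16 of 19 alternatives, Pgm1 in 7 and Pfkfb4 in 4. With slide as a random block all 3 held (limma adjusted p = 0.0106 for Pfkp, 0.041 for Pgm1 and 0.0344 for Pfkfb4). On 1 slide lay VC replicates 1 and 2 and ddH2O replicates 2 and 3, and within it Pfkp lay at -0.55 (limma adjusted p = 0.0854), Pgm1 at -0.29 (0.151) and Pfkfb4 at -0.23 (0.133). With slide as a block no gene of the whole design was called, and 3890 had an unadjusted p under 0.05. Without ddH2O replicate 2 no member was called, and without VC replicate 1, VC replicate 3, ddH2O replicate 1 or ddH2O replicate 3 only Pfkp was. Without VC replicate 2 there were 2. The direction of the 3 members held in each of these.

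The 32 members that did not pass in VC lay between -0.27 and 0.27. Ldhb was the highest at 0.27 (limma adjusted p = 0.299), with ddH2O replicate 3 at 5.04, below the other two at 5.62 and 5.63. Gapdh lay at 0.26 (limma adjusted p = 0.112), and its samples did not overlap. Of 57 member features tested 2 fell and none rose by limma adjusted p, against 5.32% that fell and 2.97% that rose over all features. These 2 were the brightest feature of Pfkp and the dimmer feature of Pdk1 at -0.31, whose brightest feature lay at 0.15. At an unadjusted p under 0.05, 9 member features lay lower and 4 higher, and no such share over all features was computed. Of 14 ratios 3 did not overlap: Pfkp to Pfkl at -0.68, Eno2 to Eno1 at -0.17 and Ldhb to Ldha at 0.38 (exact permutation p = 0.1 each, adjusted p = 0.4). Of the 35 tested members themselves 15 did not overlap, and the share of all genes without overlap was not computed.

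The designs share 17 features of 16 members, which allows the same sequence to be read in both comparisons. In RA 12 of them fell and 2 rose, from -4.26 to 2.02. In VC 1 fell, the brightest Pfkp feature, and the 17 lay between -0.56 and 0.15. Pdk1 lay at -3.75 in RA and 0.15 in VC, and Pdk3 at 2.02 in RA and 0.10 in VC. The differences between the comparisons were not tested, since the designs were normalized apart.

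Genes beside the pathway were read from companion lists. Over all genes 42.1% fell and 35.9% rose in RA, and 10.5% fell and 6.59% rose in VC. In RA the tricarboxylic acid cycle fell in 15 of 17 genes and rose in none, with Idh3a, a subunit of isocitrate dehydrogenase, 3.49-fold lower and Suclg1, a subunit of succinyl-CoA ligase, 1.96-fold lower. The pentose phosphate pathway fell in 6 of 8, with the transketolase gene Tkt 2.40-fold and G6pdx, its first enzyme, 2.23-fold lower. Pyruvate entry fell in 7 of 10 and rose in 1. Mpc1, a subunit of the mitochondrial pyruvate carrier, was 4.57-fold and the pyruvate dehydrogenase phosphatase gene Pdp1 3.28-fold lower, while the transporter gene Slc16a7 was 2.53-fold higher. In VC limma called 0 of 16 cycle genes and 0 of 7 pentose phosphate genes. Each list had 1 gene higher at an unadjusted p under 0.05, which 5035 of all 14531 genes reached in either direction. Of 9 genes of pyruvate entry Slc16a7 was called, at least 1.505-fold lower. It was below the well-above-background mark on each VC array. In such a case the fold is a lower bound. The dim group was set on each array at the higher of the gene's own signal and the lowest signal of any well-above-background feature. Such a gene passed the filter through the other group alone, so no p-value is printed beside its bound.

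Other companion lists were mixed in RA, where 35.9% of all genes rose and 42.1% fell. Of 7 glucose transporters 2 rose and 3 fell. Slc2a10 was dim on each DMSO array and at least 3.23-fold higher, and Slc2a6 was 6.57-fold higher. Slc2a3, the high-affinity transporter GLUT3, was 3.90-fold and Slc2a8 2.98-fold lower. Among 14 other isozymes 6 rose and 6 fell, with Pgm5, a phosphoglucomutase relative, 16.6-fold higher and Ldhc, the testis lactate dehydrogenase, 3.21-fold lower. The D-lactate dehydrogenase gene Ldhd was dim on each RA array and at least 3.84-fold lower. Glycogen genes rose in 4 of 8 and fell in 3, with Gyg, the primer protein glycogenin, 4.62-fold and the liver phosphorylase gene Pygl 3.33-fold higher, and Gys1, the muscle glycogen synthase, 3.17-fold and Pygb 1.73-fold lower.

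In the list of gluconeogenesis and cytosolic shuttles 3 of 9 rose and 6 fell in RA, against 35.9% and 42.1% of all genes. Gpd1, glycerol-3-phosphate dehydrogenase, was 2.52-fold and G6pc, glucose-6-phosphatase, 2.45-fold higher, while Got1, an aspartate aminotransferase, was 3.33-fold and Pck2 2.58-fold lower. Of 16 regulators of glycolytic genes 4 rose and 10 fell. The coactivator gene Ppargc1a was dim on each DMSO array and at least 6.495-fold higher, and the hypoxia-inducible factor gene Epas1 was 1.62-fold higher. The nuclear receptor gene Esrrb, also an embryonic stem cell marker, was 62.1-fold lower and Myc, an activator of glycolytic genes, 2.96-fold lower.

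In VC, where 10.5% of all genes fell and 6.59% rose, these lists gave the following calls. Of 9 glucose transporters 2 fell, Slc2a4 by 0.35 and Slc2a5 by 0.26 on the log2 scale. Of 12 other isozymes 3 fell, with Pgm5 1.46-fold and the hexokinase relative Hkdc1 1.42-fold lower. Of 8 glycogen genes 2 fell: Gbe1, the glycogen branching enzyme, was 1.76-fold and Pygl 1.66-fold lower. In the shuttle list Pck2 was 1.18-fold lower and Got1 1.17-fold higher. Of 16 regulators Esrrb alone was called, 1.32-fold higher. Of 8 fibroblast markers 2 rose and 2 fell in VC, with a summed signal of 16.8 to 17.3 in VC and 14.5 to 15.8 in ddH2O, and their part in the VC results was not tested.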

How the data were processed

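The members and lists were chosen with earlier results of these data known. The values used are Agilent's processed intensity, made by Feature Extraction 10.7.3.1 with background subtracted, per the file headers (10.7 per the submitters' processing notes). The log2 values that the authors deposited for the series served as an alternative. How they were normalized is not given in the sources read.

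Each array's 75th percentile over non-control spots was subtracted from the log2 processed intensity. Outlier spots were left out and spots of a feature averaged. Accessions were matched to symbols through a RefSeq gene table (GRCm38.p6, names alone): 27479 of 41174 features on the VC design gave 18749 genes, and 27235 of 55681 on the RA design 20660. A gene was its brightest feature, tested if well above background on at least 3 of 6 arrays. Between 61.6% and 70.4% of spots were well above background and precision is limited by the number of arrays.

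Each design was fitted alone with limma 3.58.1 in R 4.3.3 (lmFit, eBayes), p-values were adjusted over all genes (Benjamini-Hochberg), and genes under 0.05 were called. The code was tested on simulated data. Alternatives were other scalings (quantile, median, spike-in), normexp with an offset of 50 on the median signal because no mean signal column was used here, other filters, a mean of features, another variance model, a stricter threshold, blocks and each sample left out.

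All 36 members are named. Values in each sample are given for up to 12 called members by size in RA and up to 8 in VC and for the members that moved against the majority, and for Gapdh and Ldha, chosen after their values were seen. Up to 2 rises and 2 falls are named for a companion list. One gene that this rule would name is not reported here.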

Additional observations from a re-analysis of the deposited data

How the results depend on the processing

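In RA the counts of members that rose or fell stayed within 1.5 times under every alternative run, between 5 and 8 rises and between 23 and 27 falls. The members' median log2 difference in RA, -0.88, was -0.59 with quantile normalization, -0.60 in the authors' series values, -1.23 with median scaling, -1.27 with spike-in scaling and -0.92 to -0.82 when each sample was left out in turn. Bpgm turned to -0.27 in RA with median scaling, and Eno1 turned to 0.13 with quantile normalization and 0.12 in the authors' series values. In VC the 3 falls became 1 with median scaling, with normexp, with spike-in scaling and with no filter on dim features, 5 with a trended and robust variance model, 0 at an adjusted p under 0.01, 0 with slide as a block and 0 to 2 when each sample was left out. The 0 rises became 2 with the trended and robust model. The members' median in VC, -0.09, was -0.037 with median scaling, -0.024 with spike-in scaling and -0.109 to -0.023 when each sample was left out. With the replicate number of the labels as a replicate block 1 member fell in VC, and 7 rose and 25 fell in RA. Same-numbered samples did not deviate together (correlations of -0.12 to 0.06 in VC and -0.055 to -0.003 in RA), and the main fits did not pair them. Correlations of deviations from means of 3 samples cannot exclude that same-numbered samples shared a culture or batch. The causes of these changes were not tested, apart from the fewer samples of a fit that leaves one out and the stricter threshold itself. Signal over background limits Fbp1 in RA (-0.54 with normexp), and 3 samples a group limit every ratio.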
